A study of Rattus norvegicus with 16 samples.

Results

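A set of 9 genes of the insulin signalling pathway were followed in rat hearts after streptozotocin: the receptors Insr and Igf1r, the substrates Irs1 and Irs2, the kinases Akt1 and Akt2, the transcription factors Foxo1 and Foxo3, and Txnip. They were chosen by Ensembl identifier, and all 9 of 9 were found among the 23918 genes in the files and passed the filter on low counts, which kept 14175 genes. The hearts came from adult male Wistar rats of 240 to 260 g. Control rats (n = 4) received no agent, D55 rats (n = 6) a single tail vein dose of streptozotocin at 55 mg/kg and D100 rats (n = 6) one at 100 mg/kg. Streptozotocin is toxic to pancreatic beta cells, the source of insulin. Blood glucose above 13 mmol/L was checked in treated rats after 24 hours, and hearts were taken after 4 days. The labels name no vehicle injection for the controls, so the injection and the agent cannot be told apart. Whole hearts were used, and in such bulk RNA fewer cells of a type and less RNA per cell cannot be told apart. The heart label was not checked against tissue markers, because the identifiers of other genes could not be paired with symbols.

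Insulin and insulin-like growth factor bind receptor tyrosine kinases, which phosphorylate the adaptor proteins Irs1 and Irs2. These recruit phosphoinositide 3-kinase, which activates the AKT kinases, and AKT in turn phosphorylates FoxO transcription factors and keeps them out of the nucleus. When insulin is low, FoxO proteins return to the nucleus and act on genes that include Insr and Irs2 in several tissues. Txnip, an arrestin-like protein that binds thioredoxin and restrains glucose uptake, is known to be induced by glucose and repressed by insulin.

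Txnip was the 1 member that differed from control past the threshold, with a 3.84-fold higher level in D100. It was also 1.92-fold higher in D100 than in D55, and Akt1 and Akt2 were 3.17-fold and 2.53-fold lower in D100 than in D55. That comparison of the doses called 35.6% of all genes tested. Neither kinase passed in it once libraries D55 B and D55 E were left out (edgeR adjusted p = 0.14 for Akt1 and 0.149 for Akt2). Of 28 alternative settings for the comparison of the doses, 3 lost the call of Txnip and 4 lost that of each kinase. The receptors, substrates and FoxO factors passed in none of the 3 comparisons by edgeR's quasi-likelihood test, the test used throughout with p-values adjusted over all 14175 genes. Levels are given as CPM, counts scaled to the library total with TMM factors, and changes as log2 fold changes of the fit with their standard error (SE). CPM is not divided by gene length, so levels of different genes were not ranked.

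**Figure D1:**
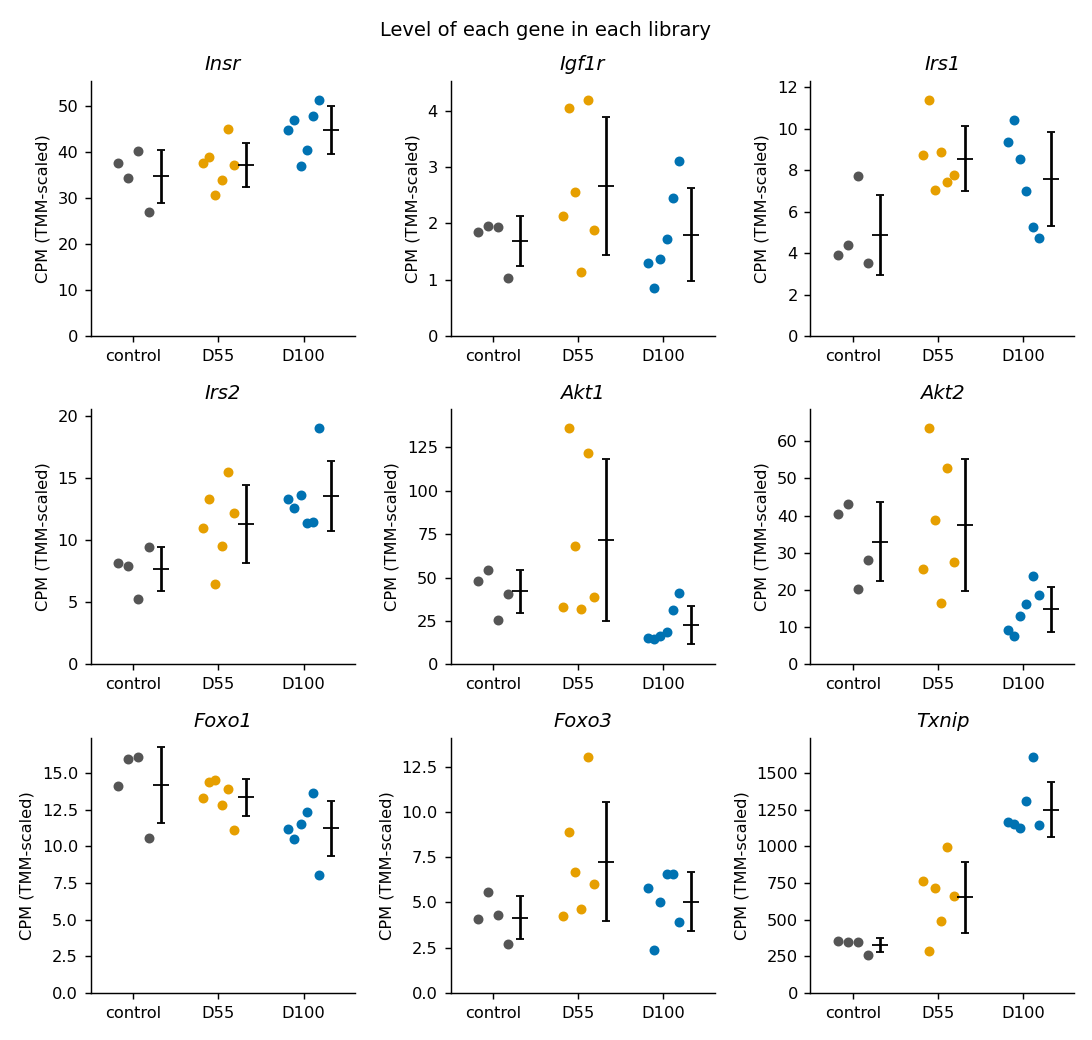
Level of each of the 9 genes (vertical axes, TMM-scaled CPM, each from 0) in the 4 control, 6 D55 and 6 D100 libraries. Points are libraries, and the bar beside them is the mean with its SD; for Txnip every D100 library (1127 to 1612 CPM) lies above every D55 library (288 to 996 CPM).

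Total estimated counts were 26.21 M to 48.27 M in control, 18.5 M to 48.4 M in D55 and 4.685 M to 25.58 M in D100 libraries, so 3 counts are worth at most 0.619 CPM, in D100 F. The top-10 share is the percentage of a library's counts taken by the 10 most abundant genes. These were 1 fixed set, the 10 genes with the highest mean share of counts over the 16 libraries. The top-10 share was 49.7% ± 7.60 (SD, n = 4) in control. It was 43.6% ± 11.1 (SD, n = 6) in D55 libraries and 60.8% ± 5.90 (SD, n = 6) in D100 libraries. D55 B and D55 E stood apart with 30.1% and 30.4%. Differences printed here that moved by over 1.5 times without them are given both ways.

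Among the receptors, Insr (ENSRNOG00000029986.6), the insulin receptor, had 37.6, 34.4, 40.3 and 27.0 CPM in controls 1 to 4. Its D55 libraries ran from 30.6 to 45.0 CPM with a median of 37.5, and its D100 libraries from 37.0 to 51.4 CPM with a median of 45.9. Of the 6 D100 values 5 lay above all controls, and the groups overlapped through D100 C alone. The fitted D100 difference from control was 0.36 (SE 0.14, adjusted p = 0.158) and that from D55 was 0.26 (SE 0.13, adjusted p = 0.106), so neither passed. The D55 difference from control, 0.10 (SE 0.14, adjusted p = 0.798), was smaller than its error, and was 0.00 without D55 B and E. Insr counts were whole (to 0.01) in only 5 of 16 libraries, so some of its reads were divided with other transcripts. Igf1r, Irs1, Irs2, Foxo1 and Foxo3 had whole counts in 16 of 16 libraries. Akt1 and Akt2 had them in 15 of 16, the exception for both being D55 B, with 9883.27 and 4609.73 estimated counts.

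Igf1r (ENSRNOG00000014187.6), the receptor for insulin-like growth factor 1, was measured from few reads: 42 to 81 counts in controls and 11 to 62 in D100. Controls held 1.84, 1.96, 1.93 and 1.03 CPM, D55 libraries 1.14 to 4.19 CPM (median 2.35) and D100 libraries 0.85 to 3.10 CPM (median 1.55). At the lowest value, in D100 B, the exact (Clopper-Pearson) 95% binomial interval was 0.424 to 1.52 CPM; such intervals cover counting error only. The 2 highest values were those of D55 B and E, at 4.04 and 4.19 CPM. Fitted differences were 0.66 (SE 0.39, adjusted p = 0.569) for D55 and 0.06 (SE 0.40, adjusted p = 0.935) for D100 against control, and -0.60 (SE 0.36, adjusted p = 0.176) between the doses. None passed the threshold. Once D55 B and E were left out, the D55 difference of Igf1r was 0.20 and the dose difference -0.14 (adjusted p = 1.0 and 0.81), and with the top-10 share as covariate the dose difference turned to 0.41 (adjusted p = 0.639).

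The bases before the annotated starts of the receptor genes are shown because Insr is a textbook FoxO target and its stretch holds the forkhead core sequence. RefSeq windows on the GRCr8 assembly matched 6 of the 9 members by symbol (not Irs2, Foxo3 and Txnip), and the 250 bases upstream of each start were searched on both strands. The motifs were the forkhead sequence GTAAACAA, the insulin response element CAAAACAA and the E-box CACGTG, none of which overlapped another in these windows. Capitals mark the match in each line, Insr at chr12:6128804-6129053 on the minus strand and Igf1r at chr1:130959747-130959996 on the plus strand.
Insr: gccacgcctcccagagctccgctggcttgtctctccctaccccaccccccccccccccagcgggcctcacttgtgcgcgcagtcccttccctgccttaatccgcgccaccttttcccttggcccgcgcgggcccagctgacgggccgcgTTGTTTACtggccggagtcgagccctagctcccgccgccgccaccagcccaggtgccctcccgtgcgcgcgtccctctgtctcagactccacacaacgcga
Igf1r: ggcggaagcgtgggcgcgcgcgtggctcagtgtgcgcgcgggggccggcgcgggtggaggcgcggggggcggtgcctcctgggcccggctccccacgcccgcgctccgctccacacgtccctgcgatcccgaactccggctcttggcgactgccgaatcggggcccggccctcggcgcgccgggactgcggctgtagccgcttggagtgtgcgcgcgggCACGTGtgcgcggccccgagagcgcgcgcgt

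In Insr the forkhead sequence lies on the opposite strand, from 101 to 94 bases before the start, as TTGTTTAC. Of all 33469 RefSeq windows of this length, 317 (0.947%) hold it. In Igf1r the E-box lies 31 to 26 bases before the start, and 5.59% of windows hold one. The insulin response element, in 1.94% of windows, was found in none of the 6, and the windows of Irs1, Akt1, Akt2 and Foxo1 held none of the 3 motifs. A match describes letters and not a bound site.

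Of the substrates, Irs2 (ENSRNOG00000023509.6), an adaptor that couples the insulin receptor to phosphoinositide 3-kinase, had 8.13, 7.94, 5.24 and 9.42 CPM in controls 1 to 4. D55 libraries ran from 6.45 to 15.5 CPM (median 11.6) and D100 libraries from 11.4 to 19.0 CPM (median 13.0). All 6 D100 values lay above all 4 controls, while D55 overlapped both groups. Absence of overlap with a higher D100 level was seen for 2 of the 9 members, Irs2 and Txnip, and for 3.15% of all genes tested. The fitted D100 change was 0.81 (SE 0.24), a 1.75-fold higher level with an edgeR adjusted p of 0.0627, above the threshold. Of 27 alternatives 9 gave a call and 18 did not, and leaving out 1 library gave an edgeR adjusted p of 0.0375 to 0.171. Among those that called the Irs2 change were DESeq2 (adjusted p = 0.01) and limma-voom (adjusted p = 0.000188), which called 67.7% of all genes. EdgeR also called it without D55 B and E (0.80, adjusted p = 0.0288) and with the top-10 share as covariate (1.02, adjusted p = 0.00762). Without scaling factors it was 0.36 (adjusted p = 0.462), under a setting in which the median of all genes moved from -0.03 to -0.48. In D55 the difference from control was 0.56 (SE 0.23, adjusted p = 0.554), and between the doses it was 0.25 (SE 0.21, adjusted p = 0.327). Leaving out D55 B and E gave 0.35 (adjusted p = 1.0) and 0.46 (adjusted p = 0.218) for Irs2.

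Irs1 (ENSRNOG00000014597.5), the other main adaptor of the insulin receptor, had 3.91, 4.39, 7.72 and 3.50 CPM in controls 1 to 4. Control 3 was the highest by far and lay within the range of both doses. D55 libraries held 7.07 to 11.4 CPM (median 8.25) and D100 libraries 4.75 to 10.4 CPM (median 7.77). All 6 values of either dose were above controls 1, 2 and 4. The fitted differences from control, 0.81 (SE 0.27, adjusted p = 0.554) in D55 and 0.64 (SE 0.27, adjusted p = 0.17) in D100, did not pass. Of 27 alternatives 3 gave a call in D100 and 1 in D55. Without control 3 the D100 difference was 0.95 (adjusted p = 0.0464) and the D55 difference 1.12 (adjusted p = 0.44). Limma-voom gave 1.01 in D100 (adjusted p = 2.53e-05, with 67.7% of all genes called) and 1.0 in D55 (adjusted p = 0.000952, with 3.68%). Without scaling factors the D100 difference was 0.17 (adjusted p = 0.605). Between the doses the Irs1 difference was -0.17 (SE 0.23, adjusted p = 0.566), or -0.09 without D55 B and E.

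The kinases Akt1 (ENSRNOG00000028629.3), expressed in most tissues, and Akt2 (ENSRNOG00000018677.3), the form most tied to insulin-stimulated glucose uptake, relay the signal onwards. Akt1 had 48.3, 54.3, 25.8 and 40.4 CPM in controls 1 to 4. Its D55 libraries ran from 31.9 to 136 CPM (median 53.5) and its D100 libraries from 14.7 to 40.9 CPM (median 17.5). The 2 highest values were D55 B at 136 and D55 E at 122 CPM, and 5 of the 6 D100 values lay below all D55 values. Akt2 had 40.3, 43.0, 20.3 and 28.2 CPM in controls 1 to 4. Its D55 libraries held 16.6 to 63.4 CPM (median 33.2) and its D100 libraries 7.73 to 23.9 CPM (median 14.6). D55 B and E were again highest, with 63.4 and 52.7 CPM, and 4 of the 6 D100 values lay below all D55 values.

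Between the doses Akt1 fell by 1.66 (SE 0.40, adjusted p = 0.0157) and Akt2 fell by 1.34 (SE 0.33, adjusted p = 0.0158) on the log2 scale. This comparison called 3 of the 9 members, the third being Txnip, and 35.6% of all genes tested, so the share among members was close to the background. Calls in the lower direction were 2 of 9 members and 21.8% of genes, and in the higher direction 1 of 9 and 13.7%. The same 3 members passed at an unadjusted p under 0.05 (51.4% of genes), in DESeq2 (46.6%) and in limma-voom (49.9%). Without D55 B and E the differences were -0.93 (adjusted p = 0.14) for Akt1 and -0.88 (adjusted p = 0.149) for Akt2, and neither passed. Once the top-10 share entered the fit they were -0.10 (adjusted p = 0.834) and -0.12 (adjusted p = 0.83). Against control, D100 differed by -0.90 (SE 0.43, adjusted p = 0.221) for Akt1 and -1.16 (SE 0.36, adjusted p = 0.0808) for Akt2. Of the 6 D100 values, 4 of Akt1 and 5 of Akt2 lay below all controls. Akt1 was -0.04 (adjusted p = 0.906) with the covariate, -1.47 (adjusted p = 1.6e-05) in limma-voom and -1.13 (adjusted p = 0.02) without D55 B and E and D100 F. Akt2 passed in DESeq2 (adjusted p = 0.0358), limma-voom (-1.6, adjusted p = 1.73e-05), without D55 B and E (adjusted p = 0.0288) and without D100 E (-1.35, adjusted p = 0.0375), and was -0.41 (adjusted p = 0.131) with the covariate. In D55 against control the difference was 0.76 (SE 0.44, adjusted p = 0.563) for Akt1 and 0.19 (SE 0.36, adjusted p = 0.859) for Akt2. Without D55 B and E the Akt1 difference was 0.03 and that of Akt2 turned to -0.28 (adjusted p = 1.0 for each). With the covariate they were 0.06 (adjusted p = 0.929) and -0.29 (adjusted p = 0.513).

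Levels of both kinases moved with the top-10 share. Over 16 libraries Pearson's r between log2 CPM and that share was -0.98 for Akt1 (Spearman's rho -0.97) and -0.95 for Akt2 (rho -0.96). Both reached a two-sided permutation p of 1e-05 (the smallest possible with 100000 permutations), or 4.5e-05 after adjustment over the 9 members. Without D55 B and E, the 2 libraries farthest from the median share, r was -0.96 and -0.95. Within the 6 D55 libraries r was -0.99 for Akt1 (exact permutation p = 0.00694, adjusted 0.0208) and -0.95 for Akt2 (exact permutation p = 0.00417, adjusted 0.0187). Within the 6 D100 libraries it was -0.94 (exact permutation p = 0.00278, adjusted 0.00833) and -0.91 (exact permutation p = 0.0208, adjusted 0.0469). Relations with the top-10 share were tested for the 9 members only, and the fraction of all genes related as strongly was not computed. Of 8646 other genes with a mean of at least 5 CPM, 1417 had an r above 0.9 with Akt1 and 1063 with Akt2. The pattern was thus not particular to these kinases. CPM values share the library total with the top-10 share, and its part in the Akt differences was not tested. Of the D55 libraries only D55 D, at 54.66%, lay within the D100 range of 53.42% to 69.04%. The fit with the share as covariate therefore cannot tell share and dose apart.

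Igf1r moved the same way, with an r of -0.77 over 16 libraries (rho -0.70, permutation p = 0.00048, adjusted 0.00144) and of -0.55 without D55 B and E. Its r was -0.95 within D55 and -0.99 within D100 (exact permutation p = 0.00278 in each). For Foxo3 an r of -0.63 (rho -0.41, permutation p = 0.00917, adjusted 0.0206) weakened to -0.25 without D55 B and E, so the pooled value depended on those libraries. Within D55, which holds them, the r of Foxo3 was -0.90 (exact permutation p = 0.0194, adjusted 0.0437). Within D100 it was -0.48 (exact permutation p = 0.324, adjusted 0.457). Irs1 had a pooled r of 0.15 (rho 0.28, permutation p = 0.586), which was 0.63 without D55 B and E, and an r of 0.97 within D100 (exact permutation p = 0.00278, adjusted 0.00833) and of -0.23 within D55. Pooled relations of Insr, Irs2, Foxo1 and Txnip did not pass after adjustment. For Txnip r was 0.44 (rho 0.54, permutation p = 0.0885, adjusted 0.133) over all libraries, 0.15 within D55 and -0.50 within D100.

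**Figure D2:**
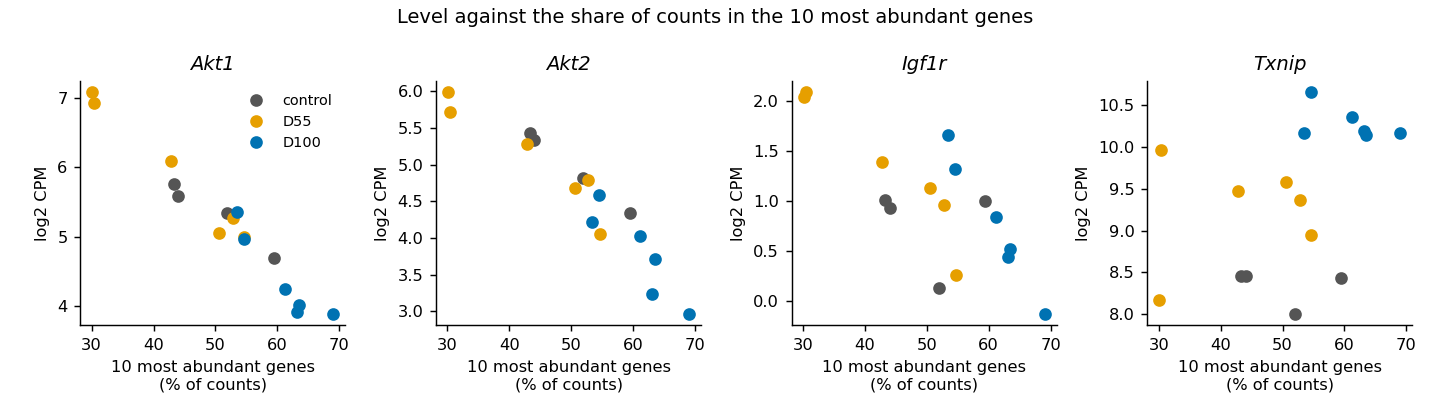
Level of Akt1, Akt2, Igf1r and Txnip (vertical axes, log2 CPM) against the percentage of counts in the 10 most abundant genes (horizontal axes). Each point is 1 of 16 libraries coloured by group; Akt1 and Akt2 lie on a falling line through all groups (r of -0.98 and -0.95), whereas for Txnip all D100 libraries lie above the rest. The D100 shares run from 53.42% to 69.04%, a range that holds 1 control and 1 D55 library.

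The FoxO transcription factors, which are held out of the nucleus by AKT, passed in no comparison by edgeR with all libraries and TMM scaling. Foxo1 passed in limma-voom in D100 against control (-0.30, adjusted p = 0.0202). Without scaling factors Foxo1 (-0.89, adjusted p = 0.00979) and Foxo3 (-1.2, adjusted p = 0.0277) passed between the doses, where the median of all genes was -0.65. Foxo1 (ENSRNOG00000013397.5) had 14.1, 15.9, 16.1 and 10.6 CPM in controls 1 to 4. D55 libraries held 11.1 to 14.5 CPM (median 13.6) and D100 libraries 8.05 to 13.7 CPM (median 11.3). All 6 D100 values were below controls 1, 2 and 3, but control 4 lay among them. The fitted differences from control were -0.09 (SE 0.16, adjusted p = 0.849) in D55 and -0.33 (SE 0.16, adjusted p = 0.236) in D100. The dose difference was -0.24 (SE 0.15, adjusted p = 0.185).

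Foxo3 (ENSRNOG00000000299.5), a related factor, had 4.06, 5.55, 4.32 and 2.69 CPM in controls 1 to 4. D55 libraries ran from 4.24 to 13.0 CPM (median 6.34) and D100 libraries from 2.40 to 6.57 CPM (median 5.41). The 2 highest values of the series were D55 E at 13.0 and D55 B at 8.91 CPM, and all 3 groups overlapped. Differences from control were 0.81 (SE 0.34, adjusted p = 0.554) in D55 and 0.29 (SE 0.34, adjusted p = 0.597) in D100, and the dose difference was -0.51 (SE 0.30, adjusted p = 0.172). With D55 B and E left out, the D55 difference of Foxo3 was 0.38 (adjusted p = 1.0) and the dose difference -0.08 (adjusted p = 0.871). With the top-10 share as covariate the dose difference turned to 0.34 (adjusted p = 0.683).

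Txnip (ENSRNOG00000021201.7) had 353, 350, 346 and 256 CPM in controls 1 to 4. D55 libraries A to F held 767, 288, 713, 492, 996 and 662 CPM, and D100 libraries A to F held 1165, 1153, 1127, 1308, 1612 and 1146 CPM. Of the 6 D55 values 5 lay above all controls, with D55 B inside the control range, and every D100 value lay above every D55 value. Group means were 326 ± 46.9 (SD, n = 4), 653 ± 242 (SD, n = 6) and 1252 ± 188 (SD, n = 6) CPM. Each value rests on at least 5551 counts, in the shallowest library D100 F, where the exact 95% binomial interval was 1116 to 1176 CPM.

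In D100 against control Txnip rose by 1.94 on the log2 scale (SE 0.27, adjusted p = 0.000854), with 6 of 6 libraries higher than all controls. It was the 1 member of 9 called in this comparison, which called 4.38% of all genes tested, and ranked 25 by p. At an unadjusted p under 0.05 the comparison had 5 of 9 members, Insr, Irs1, Irs2, Akt2 and Txnip, against 22.8% of genes. DESeq2 called 3 members (10.1% of genes) and limma-voom 6 (67.7% of genes). The call held in 27 of 27 alternatives, with values of 1.5 to 2.01. Against D55, Txnip rose by 0.94 (SE 0.22, adjusted p = 0.0157). Here 1.88% of all genes had D100 libraries above all D55 libraries without overlap, as Txnip did, alone among the members. Without D55 B and E the value was 0.93 (adjusted p = 0.0191). It was 1.04 (adjusted p = 0.123) in the fit that held the top-10 share and 0.33 (adjusted p = 0.357) without scaling factors, where the median of all genes moved from -0.03 to -0.65.

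For D55 against control the fitted Txnip difference was 1.0 (SE 0.26), a 2.0-fold higher level, and missed the threshold in edgeR (adjusted p = 0.313). Among 27 alternatives 5 gave a call: DESeq2 (adjusted p = 0.0188), limma-voom (adjusted p = 0.000667), without D55 B (1.15, adjusted p = 0.0272), without D55 B and E (1.01, adjusted p = 0.0404) and without D100 F as well (adjusted p = 0.0486). No member passed in this comparison by edgeR, in which 0.0635% of all genes did. At an unadjusted p under 0.05 it had 4 of 9 members, Irs1, Irs2, Foxo3 and Txnip, against 8.97% of all genes. DESeq2 called 1 member (0.621% of genes) and limma-voom 2, Irs1 and Txnip (3.68% of genes). None of the members had D55 libraries wholly apart from the controls, as 2.55% of genes had.

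The 9 members together had a median log2 difference of 0.66 in D55 and 0.29 in D100 against control, and of -0.24 between the doses. The medians over all 14175 genes were 0.03, -0.03 and -0.03. Of the 9 members 8 had higher fitted levels in D55 than in control, against 53.3% of all genes, and 6 of 9 in D100, against 48.0%. The D55 median without D55 B and E was 0.20, with 6 of 9 members above 0 and Insr at 0.00. It was 0.21 with the top-10 share as covariate (7 of 9 above 0) and 0.15 in limma-voom (6 of 9). The dose median was 0.34 with the covariate and -0.09 when D55 B and E were left out, and without scaling factors the D100 median against control was -0.16 (3 of 9 above 0). The comparisons with control share its 4 libraries.

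**Figure D3:**
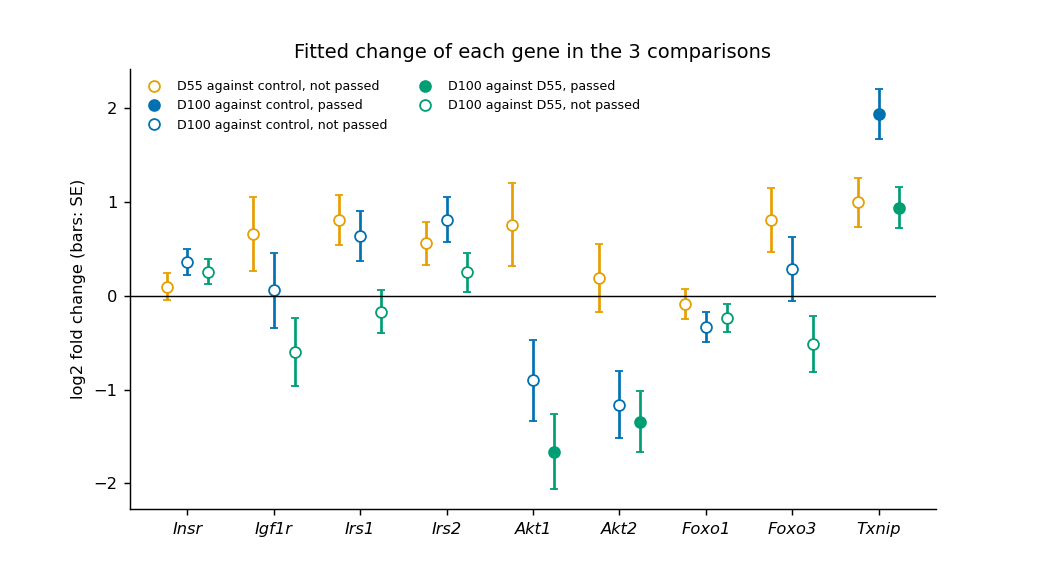
Fitted log2 fold change (vertical axis) with its SE for the 9 genes in the 3 comparisons. Filled circles passed an adjusted p of 0.05 and open circles did not; the filled ones are Txnip in D100 against control (1.94) and Txnip (0.94), Akt1 (-1.66) and Akt2 (-1.34) in D100 against D55.

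Related genes were also compared within a library, as the ratio of their estimated counts, which does not depend on scaling between libraries. The ratio depends on the lengths of both genes, so only its change between groups can be read. A ratio can still vary with the top-10 share, which was not tested. Insr to Igf1r was 9.65 in D55 B (share 30.11%) and 29.8 in D55 D (54.66%). It was 16.6 in D100 F (53.42%) and 55.2 in D100 B (69.04%). In the same order Akt1 to Akt2 was 2.14, 1.92, 2.2 and 1.9. The 4 ratios in 3 comparisons gave 12 exact two-sided permutation tests, and 0 passed after adjustment over the 12 (3 had an unadjusted exact p under 0.05). The Foxo1 to Foxo3 ratio was 3.48, 2.87, 3.72 and 3.92 in controls, 1.06 to 3.14 in D55 (median 2.01) and 1.88 to 4.39 in D100 (median 2.07). It was 1.76-fold lower in D55 than in control (log2 difference -0.81, SE 0.25, exact permutation p = 0.0238, adjusted 0.157), and the difference was -0.52 without D55 B and E (exact permutation p = 0.0571, adjusted 0.343). In D100 it was 1.5-fold lower (-0.58, SE 0.21, exact permutation p = 0.0524, adjusted 0.157), with 5 of 6 libraries below all controls and D100 B above them.

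The Akt1 to Akt2 ratio was 1.20, 1.26, 1.27 and 1.43 in controls and 1.29 to 2.31 in D55 (median 1.84), where 4 of 6 libraries exceeded all controls. Its D55 log2 difference from control was 0.46 (SE 0.15, exact permutation p = 0.0333, adjusted 0.157), and between the doses it was -0.21 (SE 0.20, exact permutation p = 0.31, adjusted 0.438). Leaving out D55 B and E, these were 0.29 (exact permutation p = 0.114, adjusted 0.343) and -0.05 (exact permutation p = 0.833, adjusted 0.848). The Insr to Igf1r ratio was 9.65 to 29.8 in D55 (median 14.8) and 16.6 to 55.2 in D100 (median 25.2), a difference of 0.82 (SE 0.36, exact permutation p = 0.0476, adjusted 0.157) that was 0.53 without D55 B and E (exact permutation p = 0.214, adjusted 0.514). The Irs1 to Irs2 ratio was 0.481, 0.553, 1.47 and 0.372 in controls, 0.479 to 1.10 in D55 and 0.25 to 0.828 in D100. Its groups overlapped throughout, with exact permutation p-values of 0.119 to 0.705.

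**Figure D4:**
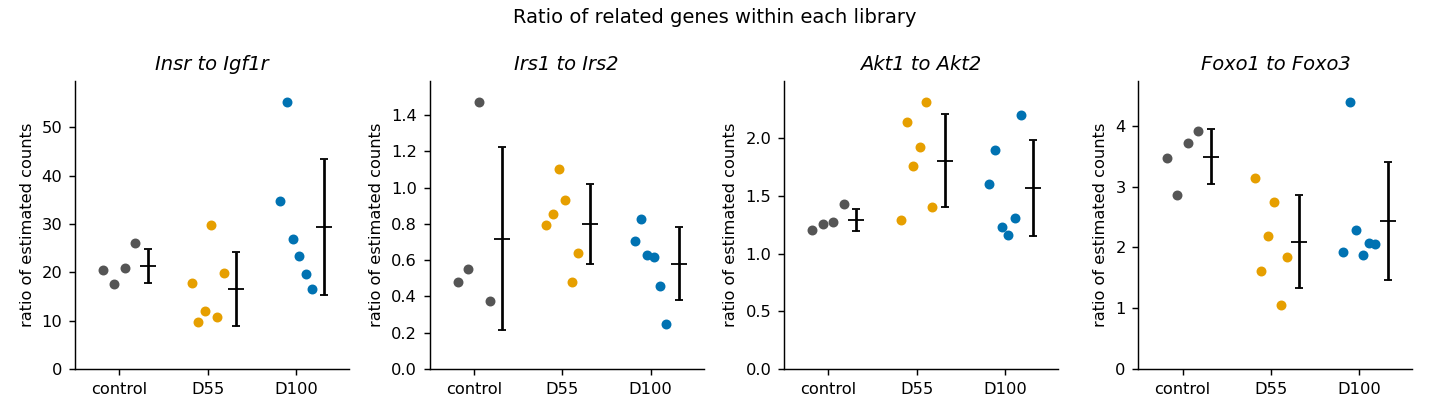
Ratio of the estimated counts of 2 related genes (vertical axes, from 0) in each library by group, with the mean and SD beside the points. The Foxo1 to Foxo3 ratio is 2.87 to 3.92 in controls and 1.06 to 3.14 in D55, and no ratio passed its test after adjustment.

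Genes with the most similar pattern over the 16 libraries were sought among 8646 other genes with a mean of at least 5 CPM. For Txnip the closest was ENSRNOG00000009565.4 (Pearson's r of log2 CPM 0.966), with means of 66.5 CPM in control, 212 in D55 and 696 in D100 (D100 against control, adjusted p = 0.00049). Of the 8646 genes, 12 had an r above 0.9 with Txnip, 34 with Igf1r and 0 with Insr, Irs1, Irs2, Foxo1 or Foxo3. For Akt1 the closest was ENSRNOG00000016021.7 (r 0.994), and 1417 genes had an r above 0.9; the closest gene itself had an r of -0.98 with the top-10 share. These likenesses were picked as the highest of many and carry no test, and the tables used here do not pair these identifiers with symbols.

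**Figure D5:**
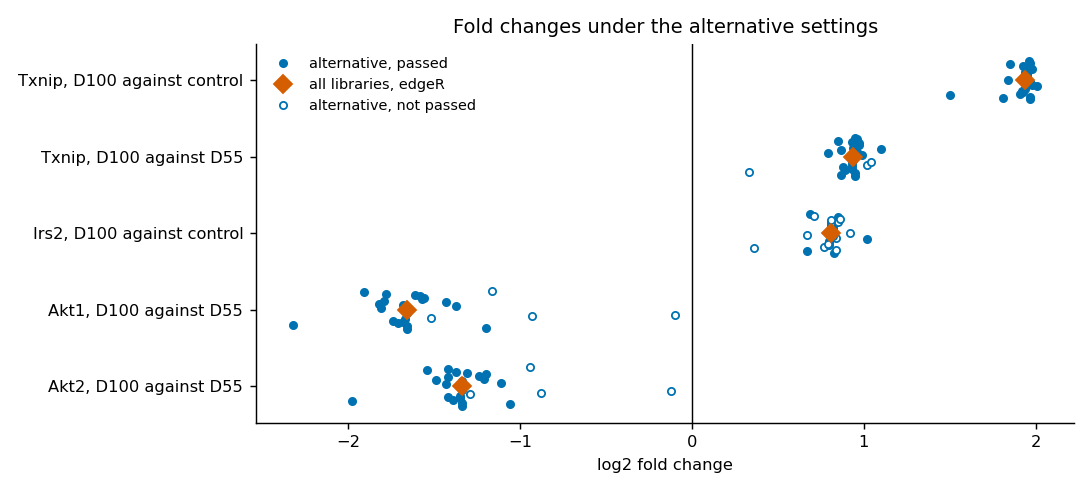
Log2 fold changes (horizontal axis) of 5 member comparisons with all libraries in edgeR (diamonds) and under the alternative settings (circles, filled where the adjusted p is under 0.05). Txnip in D100 against control stays between 1.5 and 2.01 and passes throughout, while Akt1 and Akt2 between the doses range up to -0.10 and -0.12.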

How the data were processed

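Polyadenylated heart RNA of 16 rats was sequenced, 1 library per animal, per the labels. Each deposited file lists estimated counts by gene, and the submitters' processing notes name kallisto 0.43.1 and Rnor_6.0. Kallisto divides reads shared between transcripts, so an estimate need not be whole. Not given in the sources used here: annotation release, strand setting and read filters. Values were rounded and fitted with edgeR 4.0.16 (R 4.3.3): filterByExpr with 3 groups, TMM scaling, glmQLFit and glmQLFTest on all 16 libraries with 1 coefficient per group, and Benjamini-Hochberg adjustment over 14175 genes (threshold 0.05). The SE is the log2 fold change over the square root of the F statistic. Log2 CPM used a prior count of 2. Ratios and relations were computed and tested by permutation with NumPy 2.4.6, with ranks for Spearman's rho from SciPy 1.17.1. Alternatives were DESeq2 1.42.0 (test and size factors), limma-voom (limma 3.58.1) with quality weights, no scaling, and no filter or 5 CPM in 4 libraries. Others were compared groups alone, a replicate block, leaving out libraries, and omission of the 10 genes with the highest mean share of counts over libraries. The last was the top-10 share (percentage of counts in those 10 genes) as a covariate. Omitting D100 F with D55 B and E was added after seeing the data. The edgeR code was tested on simulated counts. The exact permutation test of the ratios and the adjustment were checked on small inputs with known answers. The permutation code for the relations with the top-10 share had no such check.

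All 9 members are described whatever their values; the members, lists and alternatives were chosen with earlier results of these data known. The members' symbols come with the identifiers they were chosen by. Other pathway genes and cell type markers, listed by symbol, were not used, since the reference gene table held no Ensembl identifiers. The rule for similar genes took, for each member, the highest Pearson correlation, with at most 2 unnamed identifiers printed. No pair of libraries in a group was a duplicate (lowest chi-square per degree of freedom 12.0).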

Additional observations from a re-analysis of the deposited data

Results flagged for a closer look

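In 39 groups of values (9 genes and 4 ratios in 3 groups), 6 had a library separated from the others by a gap larger than Dixon's 95% criterion allows; chance flags about 1 in 20 groups. Control 4 was the lowest control for Igf1r, at 1.03 CPM against 1.84 for the next, and for Txnip, at 256 against 346 CPM. D100 F, the shallowest library, was the highest D100 library for Irs2, at 19.0 against 13.6 CPM. D100 E was the highest D100 library for Txnip, at 1612 against 1308 CPM. Control 3 had the highest Irs1 to Irs2 ratio of its group, 1.47 against 0.553, and D100 B the highest Foxo1 to Foxo3 ratio, 4.39 against 2.28.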

How the results depend on the processing

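Members called in D55 against control numbered 0 (9 of 14175 genes tested), but 1 in DESeq2 (0.621% of genes) and 2 in limma-voom (3.68%). The number was 1 without D55 B and E (14 of 13854 genes), and 1 without D100 F too (16 of 13794). Leaving out 1 library gave 0 to 1, the 1 without D55 B (15 of 13996 genes). In D100 against control 1 was called (4.38% of genes), but 3 in DESeq2 (10.1%) and 6 in limma-voom (67.7%). It was 3 in the compared groups alone (841 of 13541 genes) and 3 without D55 B and E (1493 of 13854). Without D100 F too it was 5 (2731 of 13794), and with the covariate 2 (1407 of 14175). Leaving out 1 library gave 1 to 3. The number was 3 without D100 E (1086 of 14140 genes) and 2 without control 3 (755 of 14416), D55 C (544 of 14094) or D55 E (638 of 14001). Between the doses 3 were called (35.6% of genes), but 6 without scaling factors (all but Insr, Irs2 and Txnip), where 7016 of 14175 genes were. It was 1 without D55 B and E (123 of 13854 genes), 1 without D100 F too (342 of 13794) and 0 with the covariate (41 of 14175). Leaving out 1 library gave 3 to 3, with 1172 to 6745 genes called.

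Libraries of D55 and D100 share the letters A to F, but deviations of same-letter libraries correlated between -0.50 and 0.63, and only letter E correlated best with itself, so the letters were not taken as pairs. Fitted with the replicate block, the doses had 0 members called (adjusted p = 0.053 for Akt1 and Txnip, 0.0534 for Akt2, at -1.52, 1.02 and -1.29) and 0 genes in all by edgeR (5916 at an unadjusted p under 0.05; no other tool was run with the block), against 3 members and 3018 genes in the same groups without it. For the 4 ratios the block changed no call. Over all genes, calls ranged from 0 to 522 in D55 against control (9 with all libraries), 180 to 9594 in D100 against control (621) and 0 to 7068 between the doses (5041). Without scaling factors the median of all genes moved to 0.20, -0.48 and -0.65, and calls split into 90 higher and 1082 lower in D100 against control (272 and 349 with TMM) and 141 higher and 6875 lower between the doses (1944 and 3097).

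Signs that turned were all of differences that did not pass. In limma-voom D55 against control was -0.26 for Akt1 and -0.54 for Akt2, D100 against control -0.28 for Igf1r, and the doses 0.00 for Irs1. Without scaling factors D55 against control was 0.10 for Foxo1, D100 against control -0.07 for Insr, -0.31 for Igf1r and -0.16 for Foxo3, and the doses -0.36 for Insr and -0.38 for Irs2. With the covariate Akt2 in D55 was -0.29, and the doses were 0.41 for Igf1r and 0.34 for Foxo3. Without D55 B and E Akt2 in D55 was -0.28, also without D100 F, where Igf1r in D100 was -0.11, and the Foxo1 to Foxo3 ratio between the doses was -0.07. Leaving out 1 library gave -0.01 to 0.18 for Insr and -0.03 to 0.34 for Akt2 in D55, -0.12 to 0.22 for Igf1r in D100, and -0.43 to 0.23 for the Irs1 to Irs2 ratio in D100. The cause was not tested. Depth limits Igf1r and Foxo3 most, with as few as 11 and 19 counts.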
